A study of Mus musculus with 4 samples.

Results

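Guidance genes are the ligands and receptors first known for steering axons, and they were examined here in clonal mouse mammary tumor cells. The set was all genes with a single symbol on the array that belong to the semaphorin, plexin, Eph, ephrin, Slit, Robo, netrin and Unc5 families. When a gene had several probe sets, the one with the highest mean was kept. This gave 65 genes from 70 probe sets, out of 19938 genes and 21789 probe sets listed with 1 symbol. The set held 35 ligands (20 semaphorins, 8 ephrins, 3 Slits and 4 netrins) and 30 receptors (9 plexins, 13 Eph receptors, 4 Robos and 4 Unc5 receptors). Ephb2 was not analysed here.

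RNA of 4 clonal cell lines was measured, with 1 array per line. All lines came from 1 spontaneous mammary tumor of a female mouse of the strain FVB Tg MMTV/neu (FVB/N in the methods), in which a promoter active in the mammary gland drives the rat ErbB2 gene. The epithelial lines E1 and E2 descend from cells sorted for high CD24 and high neu and were grown in RPMI with 20% fetal bovine serum. M1 and M2, the mesenchymal-like lines, descend from cells sorted for low CD24 and low neu and were grown in MEGM, a mammary epithelial medium, with 2% fetal bovine serum, pituitary extract, epidermal growth factor, insulin and hydrocortisone. Each line is a single clone. The types also differ in medium, and a difference by type and a difference by medium cannot be told apart. In the study's tumor experiments M1 was the line that did not form tumor, so M1 was also compared with E1, E2 and M2.

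Semaphorins are secreted or membrane-bound signals that are read by plexins, and most secreted class 3 semaphorins bind a neuropilin that stands beside the plexin. Ephrins are membrane-bound and are read by Eph receptor kinases on the neighboring cell, with ephrin-A proteins mostly bound by EphA and ephrin-B proteins by EphB receptors. Slits are bound by Robos, and netrins by Dcc, neogenin and Unc5 receptors. Outside the nervous system these families are known for controlling vessel growth, cell sorting at tissue borders and the shaping of the mammary ducts.

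Levels are the log2 values deposited by the authors, and the median over all values was 6.78. The background level is not known, so a fold is a ratio of listed values and may understate or overstate the difference in RNA for genes close to background. Levels of different genes were not set against each other, because probe sets differ in how they respond. Of 13 epithelial marker genes, 7 were higher in E than in M lines by limma and 0 were lower, with E-cadherin (Cdh1) at 12.15 and 12.31 in the E lines and 6.70 and 6.51 in M1 and M2. The keratins Krt8 and Krt18 were between 13.12 and 13.69 in all lines, and Cd24a was at 11.61, 12.15, 12.39 and 12.53 in E1, E2, M1 and M2, although the lines had been sorted for CD24 protein. Of 14 mesenchymal markers, 6 were lower in E lines by limma and 0 were higher, and the rest were not called. Over all probe sets 2.02% were higher and 1.72% were lower in E lines. Endothelial markers stayed below the median in all lines for 7 of 8 genes, with Pecam1 between 5.74 and 5.90. Among 6 neural and glial markers, 4 were below the median in all lines, while Sox10 was at 12.19 and 12.38 in the E lines and at 7.18 and 7.30 in M1 and M2. Of 7 macrophage and leukocyte markers, 4 were below the median in all lines, and the highest level was 11.60. Of 7 myoepithelial and basal markers, 4 were below the median in all lines, and the highest level was 7.36. In both lists limma called 0 genes between the types. Whether these marker differences have a part in those of the guidance genes was not tested.

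Among the 65 genes, the largest differences between the E and M lines were in secreted semaphorins. Sema3a, a secreted repellent, was higher in M lines, and Sema3d, another secreted semaphorin, was higher in E lines, each by over 5 units on the log2 scale. The semaphorin receptor Plxnb1, the receptor kinase Epha1 and the membrane-anchored ligand Efna4 were also higher in E lines. These 5 of 65 genes passed limma (adjusted p under 0.05), 4 of them higher and 1 lower in E lines. Over all 23410 probe sets tested, 3.73% passed, with 2.02% higher and 1.72% lower in E lines. At an unadjusted p under 0.05 there were 20 of the 65 (30.8%), as compared to 18.0%. A difference of at least 2-fold between the mean of E1 and E2 and the mean of M1 and M2 was found for 23 of the 65 genes (35.4%), 14 higher and 9 lower in E lines, as compared to 9.73% of all probe sets, 4.48% higher and 5.25% lower. The lines of the types did not overlap in 40 of 65 genes (61.5%), as compared to 48.0% of all probe sets. Both E lines were above both M lines in 22 genes and the reverse held in 18, as compared to 23.8% and 24.2% of all probe sets. The median absolute difference was 0.34 for the 65 genes and 0.16 for all probe sets. On bulk RNA, fewer cells with a transcript and less transcript per cell cannot be told apart. The labels do not say that any line was grown more than once, so p-values measure the spread between clones. When E1 or E2 was left out, limma called no gene of the set and no probe set at all. When M1 was left out it called 11 higher and 4 lower (23.1% of the 65), as compared to 7.52% of all probe sets, and when M2 was left out 12 higher and 4 lower (24.6%), as compared to 8.03%. With an M line left out, the spread comes from E1 and E2 alone, so these calls do not take in the spread between M1 and M2. With each line left out in turn, the log2 difference E minus M stayed between -6.83 and -5.57 for Sema3a and between 5.63 and 6.21 for Sema3d. It stayed between 2.33 and 2.50 for Plxnb1, 2.90 and 3.25 for Epha1, and 1.14 and 1.23 for Efna4.

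**Figure D1:**
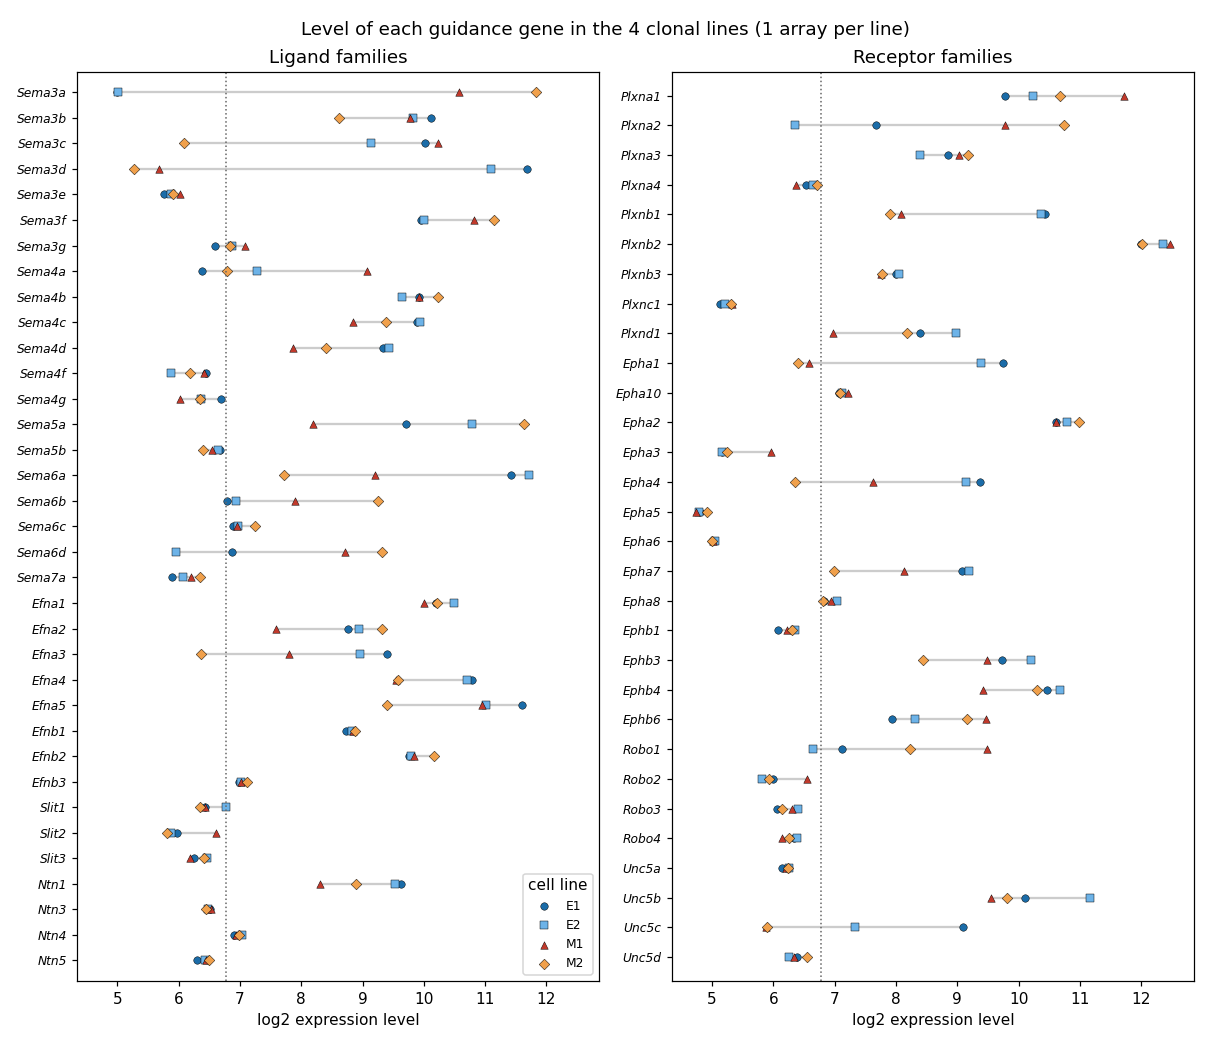
Log2 expression level (horizontal axis) of each of the 65 guidance genes in E1, E2, M1 and M2, with 1 point per line, 1 array per line and no error bar; the grey bar spans the lowest to the highest line and the dotted line is the median of all values, 6.78. Sema3a and Sema3d lie far apart between the types in opposite directions, and 35 genes stay within 2-fold over all lines.

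Where 4 levels follow each other below, they stand in the order E1, E2, M1, M2. Sema3a was at 4.99 and 5.01 in the E lines, at 10.58 in M1 and at 11.84 in M2. The E lines were alike and under the overall median, and both M lines were far above them. The log2 difference, E minus M, was -6.20 (standard error 0.46, limma adjusted p = 0.0129). Sema3d went the other way, at 11.68, 11.10, 5.68 and 5.27, with a log2 difference of 5.92 (standard error 0.27, limma adjusted p = 0.00452). In the RefSeq gene table of GRCm38.p6, Sema3d and Sema3a lie next to each other on chromosome 5 with 0 protein-coding genes between them. Sema3e, the next semaphorin on that chromosome after 3 other genes, was at 5.76, 5.88, 6.02 and 5.91.

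Plxnb1, which is bound by Sema4d, was at 10.44, 10.36, 8.08 and 7.90. Each pair of lines was close together, and E minus M on the log2 scale was 2.41 (standard error 0.12, limma adjusted p = 0.00550). Epha1, an Eph receptor known from epithelia, was at 9.74, 9.39, 6.58 and 6.41. Both M lines were under the overall median of 6.78, and E minus M on the log2 scale was 3.07 (standard error 0.17, limma adjusted p = 0.00682). Efna4 was at 10.79, 10.70, 9.54 and 9.58, a smaller but even difference of 1.18 on the log2 scale (standard error 0.11, limma adjusted p = 0.0201).

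The promoters of these 5 genes are shown because their transcripts passed the test, 1 of them high in the M lines and 4 in the E lines. Each sequence holds the 250 bases before the start site that the RefSeq promoter table lists for the gene on GRCm38.p6, read 5′ to 3′ on the strand of the gene. The table lists 1 start site for each of these genes. It is the outermost start of the RefSeq gene in Efna4, and it lies inside the gene by 5 bases in Sema3d, 46 in Epha1, 1587 in Plxnb1 and 271962 in Sema3a. Which start sites these lines use was not measured. Capitals mark CAGGTG or its reverse complement CACCTG, the form of the E-box known to be bound by Zeb and Snail factors, searched on both strands.
Sema3a promoter, chr5:13396534-13396783, plus strand: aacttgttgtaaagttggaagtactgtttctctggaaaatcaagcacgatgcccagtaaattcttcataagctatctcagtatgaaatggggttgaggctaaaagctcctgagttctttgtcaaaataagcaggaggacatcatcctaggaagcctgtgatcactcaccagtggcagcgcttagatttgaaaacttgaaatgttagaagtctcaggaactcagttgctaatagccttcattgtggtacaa
Sema3d promoter, chr5:12382916-12383165, plus strand: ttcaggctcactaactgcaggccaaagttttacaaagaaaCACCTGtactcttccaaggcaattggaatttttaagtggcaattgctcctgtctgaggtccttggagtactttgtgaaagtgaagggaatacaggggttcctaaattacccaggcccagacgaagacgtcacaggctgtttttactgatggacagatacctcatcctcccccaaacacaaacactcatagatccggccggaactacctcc
Plxnb1 promoter, chr9:109095186-109095435, plus strand: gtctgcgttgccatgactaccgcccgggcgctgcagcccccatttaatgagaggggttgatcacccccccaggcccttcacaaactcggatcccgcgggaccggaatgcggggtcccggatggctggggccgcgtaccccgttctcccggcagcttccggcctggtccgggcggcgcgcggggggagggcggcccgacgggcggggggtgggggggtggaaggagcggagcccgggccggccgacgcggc
Epha1 promoter, chr6:42373269-42373518, minus strand: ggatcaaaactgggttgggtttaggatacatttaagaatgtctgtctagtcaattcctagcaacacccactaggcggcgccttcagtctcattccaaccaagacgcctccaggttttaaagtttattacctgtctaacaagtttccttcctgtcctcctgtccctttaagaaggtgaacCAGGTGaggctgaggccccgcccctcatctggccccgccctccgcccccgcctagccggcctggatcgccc
Efna4 promoter, chr3:89338029-89338278, minus strand: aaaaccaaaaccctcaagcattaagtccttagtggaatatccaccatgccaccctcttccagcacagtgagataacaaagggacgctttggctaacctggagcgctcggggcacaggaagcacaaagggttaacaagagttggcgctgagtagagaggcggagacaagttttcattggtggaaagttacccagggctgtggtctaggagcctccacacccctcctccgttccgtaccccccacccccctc
The motif was found once in Sema3d, starting 210 bases before the listed start site, and once in Epha1, starting 71 bases before its listed start site. No match was found in these windows of Sema3a, Plxnb1 and Efna4. Over all 32851 promoter windows of this length, 17.2% held a match, and 9 of the 72 windows of guidance genes did (12.5%), which cover 56 of the 65 genes. The windows differ in composition, with 30 CpG dinucleotides and 75.2% G or C in Plxnb1 and 2 CpG and 40.8% in Sema3a. The median window of all promoters held 6 CpG. Unc5d, Plxna1, Sema3b, Ntn1, Sema3f, Sema6a, Plxna4, Efnb3 and Slit1 have no entry in the promoter table.

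**Figure D2:**
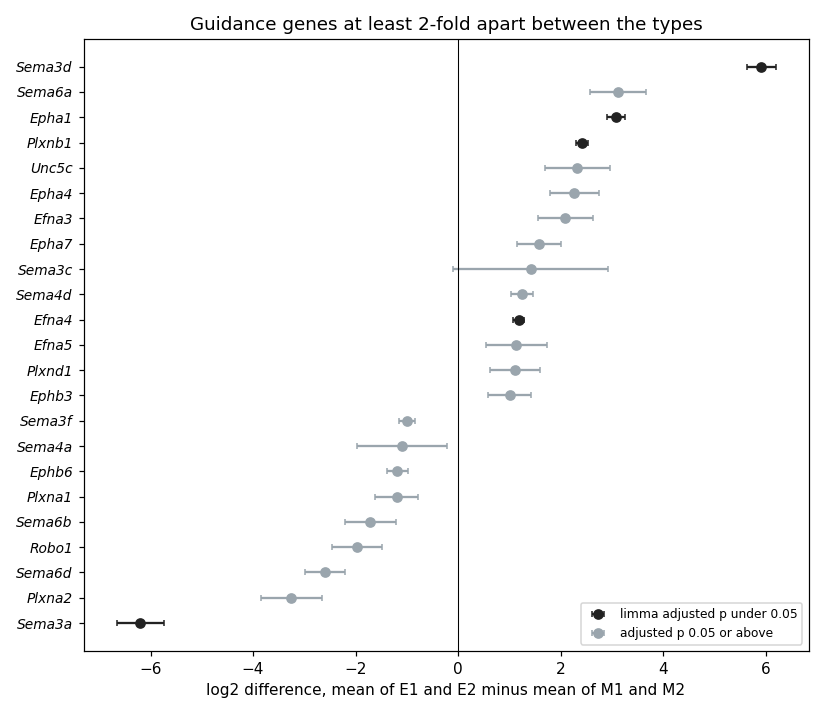
Log2 difference, mean of E1 and E2 minus mean of M1 and M2, for the 23 guidance genes at least 2-fold apart between the types. Points are the differences, bars the limma standard error (2 lines per type), and dark points the 5 genes with an adjusted p under 0.05; Sema3c has the widest bar, 1.51.

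The remaining semaphorins that were at least 2-fold apart did not pass the test over all probe sets, and all are described because of their values. For Sema3c and Sema4a these are the differences of 4-fold or more between the M lines. Sema6a, a transmembrane ligand of plexin A receptors, was at 11.42, 11.72, 9.20 and 7.71. The E lines lay above both M lines, which were themselves apart, and E minus M on the log2 scale was 3.11 (standard error 0.55, limma adjusted p = 0.0838). Sema6d, another transmembrane member of this class, was at 6.87, 5.96, 8.71 and 9.31, with both M lines above both E lines and a log2 difference of -2.60 (standard error 0.40, limma adjusted p = 0.0637). It passed when dim probe sets were left out and when the variance prior followed the mean level (limma adjusted p = 0.0482 and 0.0487). Sema6b, of the same class, was at 6.79, 6.94, 7.90 and 9.26 (-1.71, limma adjusted p = 0.199), and a second Sema6b probe set was listed with the same values. Sema4d, the ligand of Plxnb1, was at 9.33, 9.42, 7.87 and 8.40, a log2 difference of 1.24 (standard error 0.22, limma adjusted p = 0.0838). Both the ligand and its receptor thus had their higher levels in the E lines, but a second Sema4d probe set was at 7.55, 7.66, 7.43 and 7.71 and did not show the difference. Sema3f, which is bound by neuropilin Nrp2, was at 9.96, 10.00, 10.82 and 11.15, with a log2 difference of -1.0 (standard error 0.16, limma adjusted p = 0.0651). Sema3c and Sema4a overlapped between the types and are described below with the clones. Of the 20 semaphorins, 8 stayed within 2-fold over all lines, among them Sema7a, a ligand held by a lipid anchor, between 5.90 and 6.35.

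Among the 9 plexins, Plxnb1 was the only one that passed. Plxna2, a receptor of Sema6a and of class 3 semaphorins, was at 7.67, 6.35, 9.78 and 10.74. The M lines lay above the E lines, the E lines were themselves 2.50-fold apart, and the log2 difference of -3.25 did not pass (standard error 0.59, limma adjusted p = 0.0871). Plxna1, a receptor of Sema3a and Sema6d, was at 9.78, 10.24, 11.73 and 10.68, and M1 was the highest line. Plxnd1, the receptor of Sema3e, was at 8.38, 8.98, 6.97 and 8.19, and M1 was the lowest line. Plxnb2, a receptor of Sema4c, was even and high in all lines, between 11.99 and 12.47. Plxnc1, the receptor of Sema7a, was between 5.13 and 5.33.

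Semaphorin coreceptors and other guidance receptors and ligands outside the 8 families formed a list of 26 genes, of which 25 had a probe set. Of these, 3 (12.0%) were higher in E lines by limma and 0 were lower, as compared to 2.02% and 1.72% of all probe sets. The list was chosen with earlier results of these data known, so whether it differs from other genes was not tested. The neural adhesion molecules Nrcam and L1cam, which form receptor complexes with neuropilins, were both among them. Nrcam was at 10.58, 10.29, 6.21 and 6.22, a log2 difference of 4.22 (limma adjusted p = 0.00284). L1cam was at 9.53, 9.64, 7.08 and 6.58 (2.76, limma adjusted p = 0.0137). Timd2, a receptor reported to bind Sema4a, was at 7.02, 7.56, 4.47 and 4.70 (2.71, limma adjusted p = 0.0180). Nrp1, the neuropilin that binds Sema3a, was at 6.94, 5.73, 10.86 and 8.49. Both M lines lay above both E lines, but each pair was spread, and the log2 difference of -3.34 did not pass (limma adjusted p = 0.193). The median difference over the list was 0.05.

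**Figure D3:**
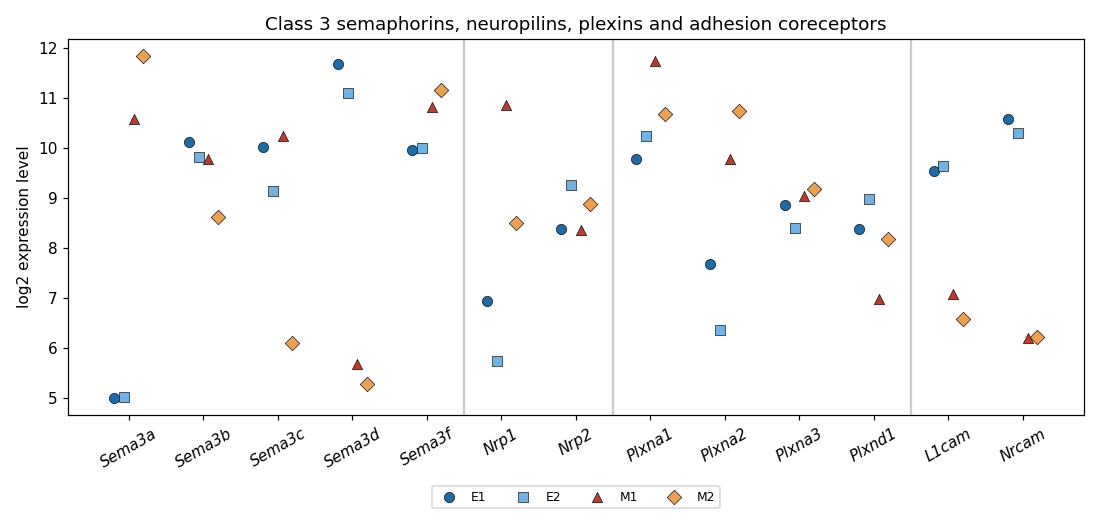
Log2 expression level (vertical axis) of class 3 semaphorins, neuropilins, plexins and the adhesion coreceptors L1cam and Nrcam in the 4 lines, with 1 array per line and no error bar; the genes were chosen after their values were seen. Sema3a, Sema3f, Nrp1, Plxna1, Plxna2 and Plxna3 have both M lines above both E lines. Sema3b, Sema3d, Plxnd1, L1cam and Nrcam have the reverse. Sema3e, Sema3g and Plxna4 are not plotted.

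In the Eph and ephrin families, 4 Eph receptors and 3 ephrins (33.3% of 21 genes) had a mean at least 2-fold higher in the E lines, and 1 receptor, Ephb6 (4.76%), had one at least 2-fold lower, as compared to 4.48% and 5.25% of all probe sets. Of these 8 genes, Epha1 and Efna4 passed limma, and the direction over the families was not tested. Epha4, a receptor that can bind ephrins of both classes, was at 9.37, 9.14, 7.63 and 6.35. The E lines lay above both M lines, which were 2.43-fold apart, and E minus M was 2.26 (standard error 0.47, limma adjusted p = 0.114). Epha7 and Ephb3, of the A and B classes of receptors, were described because of their values. Epha7 was at 9.08, 9.19, 8.13 and 6.98, and Ephb3 at 9.73, 10.21, 9.49 and 8.45. Efna3, a ligand of EphA receptors, was at 9.40, 8.96, 7.80 and 6.37, with a log2 difference of 2.09 (standard error 0.54, limma adjusted p = 0.165). Efna5 was at 11.60, 11.01, 10.94 and 9.40, with M1 close to E2 and M2 apart. For Sema6a, Epha4, Epha7, Ephb3, Efna3 and Efna5, M2 had the lowest level of the 4 lines. These genes were grouped after their values were seen. M2 was the lowest line in other guidance genes as well, among them Sema3d, Plxnb1 and Epha1. Ephb6, whose kinase domain is inactive, was at 7.94, 8.32, 9.47 and 9.16, with a log2 difference of -1.18 (standard error 0.20, limma adjusted p = 0.0790).

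The genes Efna1, Efna3 and Efna4 stand in a row on chromosome 3 with 0 protein-coding genes between them. Efna3 and Efna4 both had their E lines above their M lines. Efna1 stayed within 2-fold over the lines, at 10.20, 10.50, 10.00 and 10.21. Its receptor Epha2 was also even, at 10.61, 10.79, 10.62 and 10.98. The ephrin-B ligands Efnb1 and Efnb2 were within 0.14 and 0.41 log2 units over the lines, and Efnb3 within 0.13. Epha5 and Epha6, which are known from the nervous system, were between 4.74 and 5.05 in each line.

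Slits, Robos, netrins and Unc5 receptors gave 0 calls by limma between the types among 15 genes, with 3 (20.0%) at an unadjusted p under 0.05, as compared to 3.73% and 18.0% of all probe sets. Robo1, the Slit receptor, was at 7.12, 6.65, 9.49 and 8.22. Both M lines lay above both E lines, and E minus M was -1.97 (standard error 0.49, limma adjusted p = 0.153). The 3 Slit ligands stayed below the median of all values in each line, although Slit1 in E2 was only just below it (6.776 and 6.778). Slit2 was at 5.97, 5.88, 6.61 and 5.81 and Slit1 at 6.43, 6.78, 6.43 and 6.34. Robo2 was at 5.99, 5.82, 6.55 and 5.94. Robo4, which is known from endothelium, was between 6.15 and 6.38.

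Ntn1, a secreted netrin, was at 9.63, 9.53, 8.31 and 8.90, a log2 difference of 0.98 (standard error 0.24, limma adjusted p = 0.148). Both E lines were above both M lines. The netrin receptor Unc5c was at 9.10, 7.33, 5.88 and 5.90. E1 was 3.39-fold above E2, and the log2 difference between the types was 2.33 (standard error 0.63, limma adjusted p = 0.180). Unc5b, another netrin receptor, was at 10.10, 11.17, 9.55 and 9.80, with E2 as the highest line. Of the further netrin receptors, Dcc was at 5.89, 6.01, 5.87 and 5.93, and neogenin (Neo1) at 12.53, 11.90, 12.39 and 11.72. Ntn5 was at 6.30, 6.43, 6.44 and 6.49, and Ntn3 and Ntn4 spanned 0.07 and 0.13 log2 units over the lines.

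Proteins taken as effectors of these receptors formed a list of 57 genes, of which 54 had a probe set. By limma 3 (5.56%) were higher in E lines and 1 (1.85%) was lower, as compared to 2.02% and 1.72% of all probe sets, with a median difference of 0.09 over the list. This list too was chosen with earlier results known, and its share was not tested. Dpysl5, of the collapsin response mediators that act downstream of semaphorins, was at 10.07, 9.80, 6.54 and 6.52 (3.41, limma adjusted p = 0.00389). Pdzd2, a protein with PDZ domains whose link to these receptors was not examined here, was at 8.42, 8.44, 5.86 and 5.75 (2.63, limma adjusted p = 0.00393). Fyn, a kinase of the Src family, was at 11.38, 11.38, 10.35 and 10.21 (1.10, limma adjusted p = 0.0266). Rnd2, a small GTPase that interacts with plexins, was at 7.34, 7.35, 9.02 and 8.98 (-1.65, limma adjusted p = 0.00865). The GTPases Rac1 and Cdc42 were even, with Rac1 between 12.51 and 12.80 and Cdc42 between 12.26 and 12.31. Both were chosen after their values were seen, and apart from Rnd2 the other GTPases of the list are not described.

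The M lines differed from each other in more guidance genes than the E lines did. M1 and M2 were at least 2-fold apart in 16 of 65 genes (24.6%), 11 higher and 5 lower in M1, as compared to 5.86% of all probe sets, 3.22% higher and 2.64% lower. E1 and E2 were at least 2-fold apart in 4 of 65 (6.15%), as compared to 2.24% of all probe sets. Each of these sets a single array against another and carries no test. Sema3c, a secreted semaphorin, was at 10.02, 9.13, 10.24 and 6.09. M1 was close to the E lines and M2 stood apart, 17.7-fold below M1. Sema5a, a transmembrane semaphorin with thrombospondin repeats, was at 9.71, 10.79, 8.19 and 11.64. M2 was the highest line and M1 the lowest, 10.9-fold apart, with E2 2.10-fold above E1 between them. Sema4a, a transmembrane ligand, was at 6.38, 7.27, 9.07 and 6.79, and M1 was 4.85-fold above M2. These 3 genes (4.62%) were the ones with a difference of 4-fold or more between the M lines, as compared to 1.53% of all probe sets. Efna2, an ephrin-A, was at 8.76, 8.94, 7.59 and 9.32, with M1 as the lowest line.

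**Figure D4:**
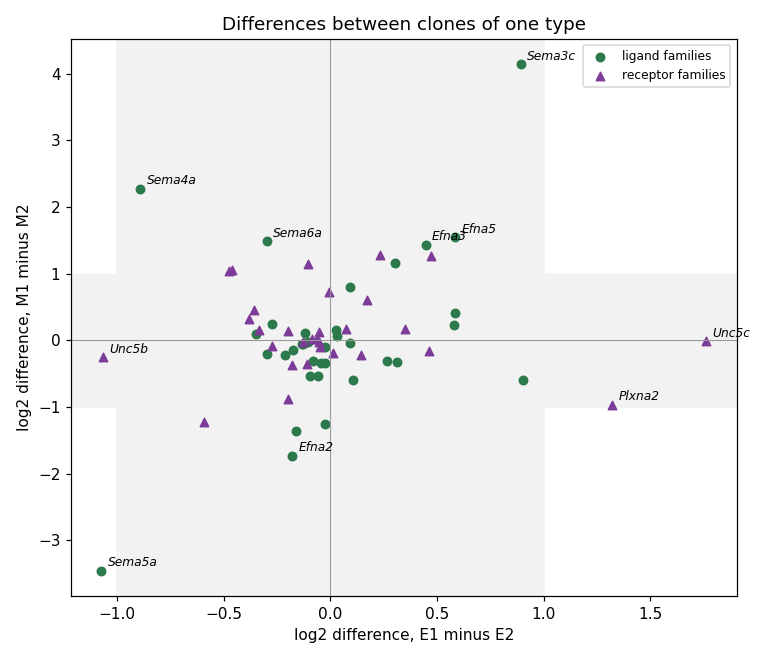
Log2 difference E1 minus E2 (horizontal axis) and M1 minus M2 (vertical axis) for each of the 65 guidance genes, from single arrays with no error bar; the grey bands mark differences under 2-fold. Sema3c lies at 4.14 and Sema5a at -3.45 between the M lines, and Unc5c at 1.76 between the E lines.

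Since M2 formed tumor and M1 did not in the study, M1 was set against E1, E2 and M2. limma called 0 of the 65 genes, as compared to 0.0940% of all probe sets, and also 0 when the variance prior followed the mean level. At an unadjusted p under 0.05 there were 10 (15.4%), as compared to 7.01% of all probe sets. All 10 genes were chosen by their values. Sema4a was named for its difference of 4-fold or more between the M lines, which enters its comparison here. Slit2, Robo1 and Robo2 were named for their differences between the types. The others were chosen after their values were seen. Sema4a, with 9.07 in M1, averaged 6.82 ± 0.45 (SD, n = 3) over the other lines, a log2 difference of 2.25 (standard error 0.41, limma adjusted p = 0.448). Efna2, with 7.59 in M1, averaged 9.0 ± 0.29 (SD, n = 3) over the rest (-1.42, limma adjusted p = 0.475). Ephb4, a receptor of Efnb2, had 9.42 in M1 and a mean of 10.48 ± 0.18 (SD, n = 3) over the rest (-1.06, limma adjusted p = 0.457). Plxnd1 had a log2 difference of -1.55 and Sema4c of -0.89, while Plxna1 was at 1.5 and Robo1 at 2.16. Epha3, Slit2 and Robo2 had differences of 0.77, 0.73 and 0.63 at levels below the median in all lines. M1 lay above all other lines in 14 of the 65 genes (21.5%) and below them in 17 (26.2%), as compared to 26.0% and 26.2% of all probe sets. The single array of M1 has no spread of its own and is assumed to vary like the other lines. When M2 was left out, limma called 4 genes higher and 12 lower in M1 (24.6%), as compared to 8.03% of all probe sets, but M1 then stands against the E lines alone, which also differ from it in type and medium.

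Among the 23 genes that were at least 2-fold apart between the types, the lines did not overlap in 21. In 14 of these 21 (66.7%) M2 was farther than M1 from the mean of the E lines, as compared to 1039 of 2148 probe sets (48.4%) selected in the same way. Without the limit of 2-fold this was so for 23 of the 40 genes whose lines did not overlap (57.5%), as compared to 50.5% of the 11227 such probe sets. The root mean square log2 difference over the 65 genes was 0.46 between E1 and E2, 0.99 between M1 and M2, 1.52 between E1 and M1 and 1.81 between E1 and M2. Over all probe sets it was 0.39, 0.57, 0.90 and 0.88. For the 20 semaphorins the distance between M1 and M2 was 1.47 and for the 13 Eph receptors 0.66. These are descriptions of 4 arrays, and whether the set differs from other genes was not tested.

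A difference was small over all lines in many genes, as 35 of 65 (53.8%) stayed within 2-fold over all lines, as compared to 81.8% of all probe sets. No line reached the overall median in 21 of the 65 genes (32.3%), as compared to 36.9% of all probe sets, and these 21 were all among the 35. How far they lie from background is not known. The other even genes were Sema3g, Sema4b, Sema6c, Plxna3, Plxnb2, Plxnb3, Epha2, Epha8, Epha10, Efna1, Efnb1, Efnb2, Efnb3 and Ntn4. The widest of the 35 was Epha3 at 0.81 log2 units from lowest to highest line, and the narrowest was Epha6 at 0.06.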

How the data were processed

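Expression was measured in E1, E2, M1 and M2 on Affymetrix mouse gene arrays, 1 per line, from array files exported by the manufacturer's software. The values deposited by the authors are log2 levels of 35556 probe sets from 2.28 to 14.5. The processing notes name Partek. Background correction, normalization and summarization are not given in the sources used here. The medians of the arrays lay between 6.75 and 6.85, and no further scaling was applied. With 1 array per line, precision is set by the number of lines.

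Symbols came from the platform's annotation, with 23410 probe sets named, 1621 of them with several symbols. The symbols of all 65 members were the same in a later RefSeq table. Differences were tested in limma 3.58.1 under R 4.3.3 (lmFit and eBayes, 2 residual degrees of freedom) over all named probe sets, with p-values adjusted by the method of Benjamini and Hochberg and a threshold of 0.05. The test of E against M was checked on simulated data with independent values. That check does not cover the difference in medium or the single array per line.

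The genes named are those called in either comparison, the 2 with the largest difference between the types in each family, those with a difference of 4-fold or more between the M lines or 2-fold or more between the E lines, and, of the lists of coreceptors and effectors, those called and the 2 with the largest difference. Other genes given with values were chosen after their values were seen. The members and lists were chosen with earlier results of these data known. The alternatives tried were median centring, quantile normalization, leaving out dim probe sets, testing all probe sets, averaging the probe sets of a gene, a variance trend, the clone number as a block and leaving out each line in turn.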

Additional observations from a re-analysis of the deposited data

How the results depend on the processing

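Quantile normalization, centring, testing all 35556 probe sets and averaging the probe sets of a gene left 4 genes higher and 1 lower in E lines. With the filter on dim probe sets and with the variance trend, 2 were lower in E lines, since Sema6d then passed. The clone numbers are names of separate clones, and the deviations of E1 and M1 from their group means had a correlation of -0.04 over 23410 probe sets. With the clone number as a replicate block, 3 genes were higher and 0 lower in E lines, and 319 probe sets were called in place of 874. The genes lost were Efna4 (limma adjusted p = 0.0943) and Sema3a (limma adjusted p = 0.0545), and of the lists L1cam, Fyn and Rnd2 (limma adjusted p = 0.0717, 0.105 and 0.0613). M1 against the other lines was not fitted with the block. When each line was left out in turn, between 0 and 12 genes were higher and between 0 and 4 lower in E lines. For M1 against the remaining lines, between 0 and 4 were higher and between 0 and 12 lower. The calls came without M2, which leaves M1 to be compared with lines of the other type and medium. This comparison cannot be made without M1. A line left alone in its group is assumed to vary like the other group.

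When a line was left out, the difference E minus M changed sign for 18 of the 65 genes. The share over all probe sets was not counted. All 18 were among the 25 whose lines overlapped, because the sign cannot change where the lines do not overlap. The difference E minus M ranged from -0.66 to 3.48 for Sema3c and from -2.24 to 0.037 for Sema4a. For Sema5a it ranged from -1.39 to 2.06, and for Slit2 from -0.69 to 0.12. The count of genes with a difference of 4-fold or more between the M lines was 3 under each scaling and with the filter on dim probe sets. In 21 of the 35 even genes all levels lie below the overall median, and the distance of these levels from background is not known.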
